A study of Mus musculus with 8 samples.

Results

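The response of wild-type (WT) mouse embryonic fibroblasts to B-DNA was read from 2 of the 8 Affymetrix arrays of the series: 1 array of Tbk1+/+ Ikbke+/+ cells 4 h after transfection with B-DNA, and 1 array of Tbk1+/+ Ikbke+/+ cells 4 h after mock transfection. The members are this pair of arrays, taken by genotype and treatment from the labels, and every gene on them is described by its ratio of B-DNA over mock. The B-DNA was poly(dA-dT)-poly(dT-dA), a synthetic double strand of alternating A and T that takes the right-handed B form. All 8 arrays carried total RNA of embryonic fibroblasts, mesenchymal cells grown out of embryos, from mice of a C57BL/6 x 129Ola background. The other 6 arrays are B-DNA and mock pairs of Tbk1-/- Ikbke+/+, Tbk1+/+ Ikbke-/- and Tbk1-/- Ikbke-/- cells, also at 4 h, and serve here for comparison. No source used here gives the number of embryos or cultures behind an array, or the age of the embryos.

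DNA in the cytosol is a danger signal in most mammalian cells. Sensors such as cGAS bind it and activate the adaptor STING, and RNA polymerase III can also copy DNA rich in A and T into RNA that the sensor RIG-I recognises. Both routes lead to the kinases TBK1 and IKK epsilon (encoded by Ikbke), which phosphorylate the transcription factor IRF3 and thereby turn on the interferon beta gene. Secreted interferon then acts on its receptor, and the signal reaches interferon-stimulated response elements in the promoters of antiviral genes. Fibroblasts are a classic source of interferon beta.

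Signals are the deposited intensities after each array was multiplied so that its trimmed mean, without the extreme 2% at each end, was 500. The deposited trimmed means ran from 140 to 255 over the 8 arrays, with 237 on the WT mock and 179 on the WT B-DNA array. The ratio of 3' to 5' signal of the control probe sets was 0.818 and 0.779 for Gapdh and 0.953 and 0.944 for Actb on these arrays. Signals below 122, called the floor, were raised to it, and ratios that involve them are minimum values, marked "at least". Of 12393 genes, 7754 reached the floor on both WT arrays and 3486 on neither. With 1 array on each side, no WT ratio has a replicate check and none carries a p-value or an error. All 11 fibroblast markers reached 244 on both arrays, among them the collagen genes Col1a1 and Col1a2 and the filament gene Vim.

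A total of 315 genes were higher after B-DNA and 182 were lower, counting a difference of 2-fold or more whose higher signal was 244 or more. These are 2.54% and 1.47% of the 12393 genes. Which direction holds more genes depends on the settings: without scaling of arrays 178 genes were higher and 729 lower, and at 1.5-fold 638 were higher and 695 lower. Among the higher genes 211 lay between 2-fold and 4-fold, 55 between 4-fold and 8-fold, 20 between 8-fold and 16-fold, and 29 at 16-fold or more. Among the lower genes these numbers were 173, 8, 1 and 0, so ratios of 16-fold or more were found on the higher side only. The floor makes 66 of the higher and 37 of the lower ratios minimum values. When all genes measured on both arrays, counted genes included, were split into 4 equal classes by mean signal, 5% of each class lay under a log2 ratio of -0.63 to -0.84 and 5% above 0.70 to 0.88. A log2 ratio just past 1 is therefore near the edge of that spread.

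**Figure D1:**
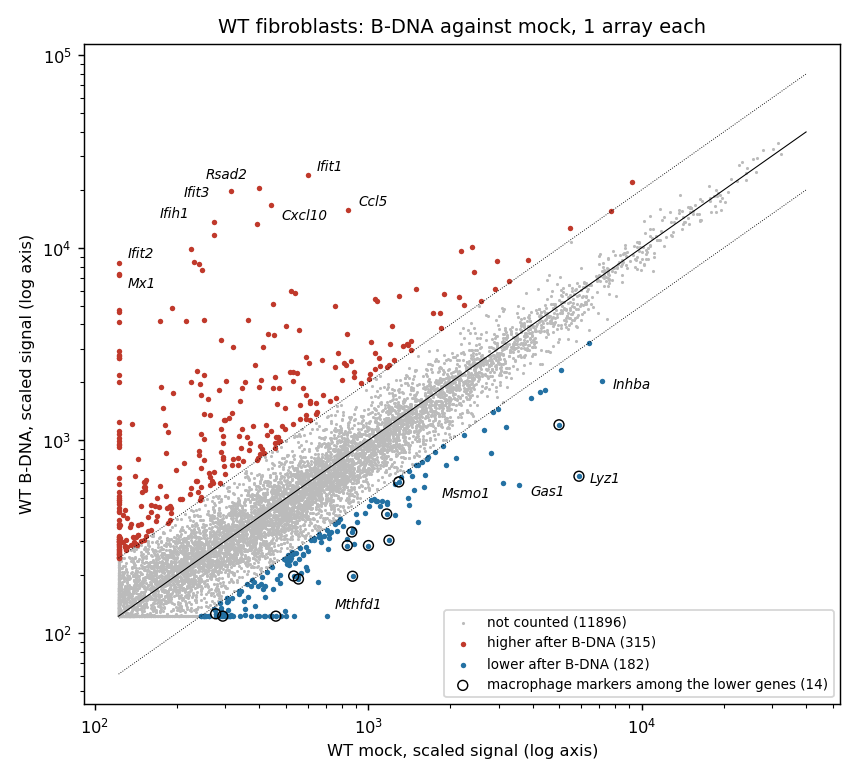
Scaled signal of 12393 genes on the WT mock array (x axis) and the WT B-DNA array (y axis), both on log axes and with values under the floor drawn at 122; dotted lines mark 2-fold. The 315 higher genes (red) reach much farther from the diagonal than the 182 lower genes (blue), of which 14 are macrophage markers (circled).

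The genes farthest from the diagonal encode antiviral proteins that interferon induces. Ifit3, whose product binds to and steadies Ifit1, read 314 on the mock array and 19679 after B-DNA, a log2 ratio of 5.97. Rsad2, which encodes the antiviral enzyme viperin, read 400.0 and 20459.7 (5.68), and its other probe sets gave 5.84 and at least 6.52. Ifih1, the double-stranded RNA sensor also called MDA5, read 273 and 13655 (5.65). These genes were detected at a low level in mock cells and were among the brightest signals in B-DNA cells, both read at 4 h. Igtp, an immunity-related GTPase, read 225 and 9830.4 (5.45). Ifit1, which binds the unmethylated cap of viral RNA, read 600.0 and 23925 (5.32). Cxcl10, a chemokine that draws activated T cells, read 439.7 and 16599.8 (5.24).

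The promoters of these 6 genes are shown because they share a letter pattern that the choice of genes did not use. Each window runs from 250 bases before to 50 bases after the start of the gene, 5′ to 3′ on the gene's own strand, from RefSeq on GRCm38.p6. Capitals mark matches on either strand to the core of the interferon-stimulated response element (ISRE), searched as GAAA, any 2 bases and GAAA (TTTC on both sides in the reverse complement), and to a core of NF-kB sites, searched as GGGA, any 2 bases and TTCC. Ifit3 lies on chr19:34583279-34583578 (plus strand), Rsad2 on chr12:26456403-26456702 (minus), Ifih1 on chr2:62646206-62646505 (minus), Igtp on chr11:58199306-58199605 (plus), Ifit1 on chr19:34640639-34640938 (plus) and Cxcl10 on chr5:92348840-92349139 (minus). Iigp1, which ranked between Igtp and Ifit1, has no entry in the promoter table.
Ifit3: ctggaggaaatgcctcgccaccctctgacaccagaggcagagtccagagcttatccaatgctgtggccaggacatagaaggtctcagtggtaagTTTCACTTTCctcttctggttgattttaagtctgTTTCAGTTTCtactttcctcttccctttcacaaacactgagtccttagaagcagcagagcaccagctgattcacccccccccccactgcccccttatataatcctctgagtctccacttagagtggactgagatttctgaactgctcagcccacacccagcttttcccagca
Rsad2: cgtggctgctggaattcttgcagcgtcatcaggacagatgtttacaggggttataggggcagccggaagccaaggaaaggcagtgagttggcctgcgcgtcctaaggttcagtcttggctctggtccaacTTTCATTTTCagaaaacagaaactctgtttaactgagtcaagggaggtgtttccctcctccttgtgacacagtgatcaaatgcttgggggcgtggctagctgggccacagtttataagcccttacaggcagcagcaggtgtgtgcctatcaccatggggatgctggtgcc
Ifih1: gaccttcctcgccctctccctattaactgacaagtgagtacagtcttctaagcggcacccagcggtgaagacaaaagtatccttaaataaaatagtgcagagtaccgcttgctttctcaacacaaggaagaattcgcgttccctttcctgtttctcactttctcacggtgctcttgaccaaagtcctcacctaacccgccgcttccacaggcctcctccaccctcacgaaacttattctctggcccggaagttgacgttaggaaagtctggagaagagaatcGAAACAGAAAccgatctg
Igtp: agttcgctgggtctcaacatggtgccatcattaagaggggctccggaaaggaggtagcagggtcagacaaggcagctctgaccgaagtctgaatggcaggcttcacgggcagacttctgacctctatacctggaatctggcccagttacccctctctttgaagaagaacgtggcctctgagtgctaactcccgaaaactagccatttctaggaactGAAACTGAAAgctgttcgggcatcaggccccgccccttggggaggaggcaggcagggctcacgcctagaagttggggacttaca
Ifit1: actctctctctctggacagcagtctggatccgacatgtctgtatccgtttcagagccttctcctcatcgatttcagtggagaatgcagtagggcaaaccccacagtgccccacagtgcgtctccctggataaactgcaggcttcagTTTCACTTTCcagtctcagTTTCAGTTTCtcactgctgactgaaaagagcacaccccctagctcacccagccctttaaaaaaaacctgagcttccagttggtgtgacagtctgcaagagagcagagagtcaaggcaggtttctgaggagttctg
Cxcl10: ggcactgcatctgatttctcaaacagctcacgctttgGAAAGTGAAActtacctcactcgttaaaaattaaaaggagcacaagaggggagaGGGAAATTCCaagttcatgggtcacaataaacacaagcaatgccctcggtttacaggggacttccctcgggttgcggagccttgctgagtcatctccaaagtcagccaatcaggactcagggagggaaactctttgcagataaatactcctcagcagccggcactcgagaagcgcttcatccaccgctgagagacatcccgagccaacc

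All 6 windows hold the ISRE core. In Ifit3 it occurs at -156 to -147 and at -122 to -113 from the start, and in Ifit1 at -104 to -95 and at -85 to -76. Rsad2 has it at -120 to -111 and Igtp at -34 to -25. In Ifih1 it lies downstream, at 33 to 42 into the transcript. Cxcl10 has the ISRE core at -213 to -204 and the NF-kB core at -159 to -150, and is the only one of the 6 with the latter. A match is a letter pattern, and binding of a factor was not measured.

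The windows of the 3 lowest measured genes left by the same choice are given as well. The first is Lyz1, a lysozyme gene on the list of macrophage markers, on chr10:117292819-117293118 (minus strand). Gas1, a membrane protein linked to growth arrest and hedgehog signalling, lies on chr13:60177486-60177785 (minus), and Msmo1, an enzyme of cholesterol synthesis, on chr8:64733529-64733828 (minus). None of these windows matched either pattern, nor TCACNCCAC, a core of the sterol response element. Over all windows the 3 patterns were present in 3.44%, 1.47% and 1.24%, so 3 windows without a match set these genes apart from no others.
Lyz1: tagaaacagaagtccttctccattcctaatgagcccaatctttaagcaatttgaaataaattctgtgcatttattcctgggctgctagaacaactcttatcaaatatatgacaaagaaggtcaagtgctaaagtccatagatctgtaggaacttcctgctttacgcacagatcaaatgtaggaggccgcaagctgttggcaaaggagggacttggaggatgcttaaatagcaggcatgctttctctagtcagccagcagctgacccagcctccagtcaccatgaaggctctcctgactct
Gas1: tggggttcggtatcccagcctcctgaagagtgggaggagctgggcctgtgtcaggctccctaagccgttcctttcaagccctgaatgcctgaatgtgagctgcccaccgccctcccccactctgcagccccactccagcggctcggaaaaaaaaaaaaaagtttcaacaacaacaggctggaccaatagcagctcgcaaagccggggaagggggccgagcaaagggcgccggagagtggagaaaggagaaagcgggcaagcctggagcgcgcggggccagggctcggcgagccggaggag
Msmo1: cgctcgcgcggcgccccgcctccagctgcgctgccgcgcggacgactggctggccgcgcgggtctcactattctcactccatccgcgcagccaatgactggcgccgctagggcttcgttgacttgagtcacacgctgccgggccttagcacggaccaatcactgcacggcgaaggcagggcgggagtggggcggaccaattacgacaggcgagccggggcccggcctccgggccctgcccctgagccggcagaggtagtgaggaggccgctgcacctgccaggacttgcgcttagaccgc

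Over all genes with an entry the ISRE core followed the size of the ratio. It was present in 3.44% of all 32851 windows of the table, in 17.4% of 317 windows of higher genes (233 of the 315 genes had a window) and in 4.23% of 189 windows of lower genes. Of the higher genes, 56.1% of 41 windows held it where the ratio was 8-fold or more and 11.6% of 276 windows where it was smaller. The NF-kB core was in 1.47% of all windows, 3.15% of those of higher genes, 9.76% of those at 8-fold or more and 1.06% of those of lower genes. TTCNNNGAA, the core bound by STAT dimers, was in 8.30% of all windows, 11.4% of those of higher genes, 19.5% of those at 8-fold or more and 3.70% of those of lower genes. The sterol core was in 1.24% of all windows, 1.26% of those of higher genes and 0.529% of those of lower genes. Both strands were searched for each pattern, patterns may share bases, and genes with several starts count several windows.

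Antiviral effector families were the groups with the largest ratios. All 3 IFIT genes measured were higher, with a median log2 ratio of 5.97 against 0 over all genes, and all 5 genes grouped with Mx and viperin were higher (median 5.68). Ifit2 read 104, under the floor, in mock cells and 8315 in B-DNA cells, at least 68.1-fold higher. Mx1, a GTPase that traps viral nucleoproteins, went from 86.8 to 7238, at least 59.2-fold higher, and Mx2 from 37 to 2898, at least 23.7-fold higher. Cmpk2, the nucleotide kinase encoded next to Rsad2, went from 72.9 to 7335, at least 60-fold higher (a log2 ratio of at least 5.91, and of at least 4.75 on another probe set). Samhd1, which breaks down the nucleotides that viruses need, started higher and read 500.1 and 3905 (2.96), while its other probe sets gave 3.52, 1.13 and 2.47.

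The oligoadenylate synthase family, whose active members switch on the RNA-cutting enzyme RNase L, had 5 of 6 genes higher (median 3.10). Oasl1, which is known to limit translation of Irf7, read 229.8 and 8462 (5.20). Oasl2 went from 76.9 to 4752, at least 38.9-fold higher. The synthases themselves had smaller ratios: Oas1a read 242 and 1954 (3.01), and Oas2 read 152 and 572 (1.91). Oas3 went from 65.9 to 242 and was not counted, its higher value being under 244.

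Interferon-induced GTPases were higher throughout the measured families. Of the immunity-related GTPases all 5 were higher (median 5.24), and of the guanylate-binding proteins 5 of 6 (median 4.31). Iigp1 read 272 and 11596 (5.41), and its other probe set gave at least 4.30. Irgm2 went from 70.8 to 4618, at least 37.8-fold higher, while Irgm1, which keeps the other GTPases of the family inactive on the cell's own membranes, started at 519.8 and reached 5939.8 (3.51). Gbp2 read 393 and 13360.4 (5.09; 4.19 on another probe set), Gbp2b 247 and 7636 (4.95), and Gbp7 173 and 4167 (4.59). Gbp8 was the exception, under the floor on both arrays. Members of these families resemble each other in sequence, and probe sets may read more than 1 of them.

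Other interferon-stimulated families were higher in part. Of 4 genes of ISG15 conjugation, the attachment of a ubiquitin-like protein, 3 were higher (median 2.65), led by Usp18, the protease that removes ISG15 and damps the interferon receptor, at 239.5 and 8266 (5.11). Of 11 PARP genes, which add ADP-ribose to proteins, 5 were higher (median 0.70). Parp14 read 192 and 4875 (4.67), Parp9 542 and 5839.9 (3.43), and Parp12 289 and 3331 (3.53), whereas Parp1, the DNA repair enzyme, read 734 and 667 (-0.14). Of 25 TRIM ubiquitin ligases 5 were higher, with a median over the family of -0.05. Trim21, an intracellular antibody receptor, read 321 and 3073 (3.26), Trim30a 193 and 1767 (3.19), and Trim25, which supports RIG-I, 755 and 4989 (2.72). The other counted PARP genes had smaller ratios, Parp3 at 1431 and 3278 (1.20) and Parp4 at 137 and 313 (1.19), and neither was counted without scaling.

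A broader list of 30 further antiviral effectors had 19 higher genes and none lower (median 1.73). Rtp4, which binds viral RNA, read 449.7 and 5097 (3.50). Pml, the scaffold of nuclear bodies, read 237 and 2289 (3.27), and Bst2, the tether that holds budding virions, 178 and 1479 (3.05). Eif2ak2, the kinase PKR that halts translation, read 244 and 1726 (2.82; 2.18 on another probe set). Not all listed effectors moved: Ifitm2, a membrane protein that blocks virus entry, was bright on both arrays at 5070.1 and 5718 (0.17).

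**Figure D2:**
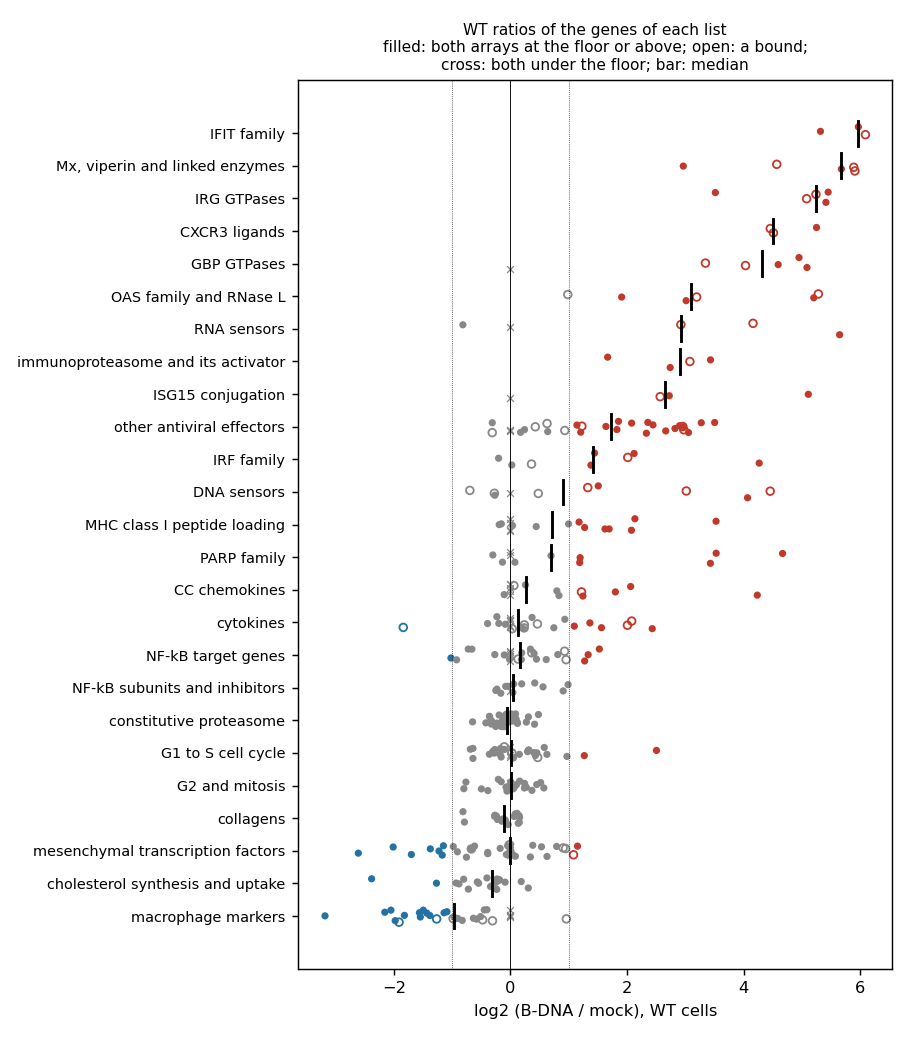
Log2 ratio of B-DNA over mock in WT cells (x axis) for the genes of 25 lists (y axis), with red for counted higher genes, blue for counted lower genes, grey for the rest and a bar at each list's median. Antiviral families, CXCR3 ligands and the immunoproteasome lie to the right with medians from 1.73 to 5.97, the constitutive proteasome, NF-kB subunits, mitotic genes and collagens lie around 0, and the macrophage markers have a median of -0.98.

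Sensors of foreign nucleic acid were among the higher genes. Of 5 RNA sensor genes 3 were higher. Beside Ifih1, Tlr3, the endosomal receptor of double-stranded RNA, went from 36.3 to 2185, at least 17.9-fold higher, and Dhx58, a regulator of RIG-I and MDA5, from 11 to 926, at least 7.58-fold higher. Other probe sets of these 2 genes gave smaller minimum log2 ratios of 1.59 and 1.04, with their mock signals under the floor. Mavs, the adaptor of the RNA sensors on mitochondria, read 302 and 172 (-0.82). Of 10 DNA sensor genes 5 were higher. The interferon-inducible IFI family contributed Mndal, from 38.9 to 2679.8 (at least 21.9-fold, a log2 ratio of at least 4.46, against at least 2.82 on another probe set), Ifi202b, from 250.3 to 4195 (4.07), and Ifi204, from 11 to 306 (at least 2.51-fold). Zbp1, a sensor of left-handed nucleic acid, went from 16.5 to 988, at least 8.09-fold higher (a log2 ratio of at least 3.02, and of at least 2.41 on another probe set). Sting1, the adaptor on the DNA route, read 422 and 1199 (1.51). The probe sets of Mndal and Ifi202b are of types that may also read related genes.

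Adaptors and kinases upstream of interferon differed less. Of 13 genes of Toll-like receptor signalling and kinase adaptors 3 were higher and 1 lower (median 0.43). Tlr2, the receptor of bacterial lipoproteins, read 1075 and 5295 (2.30). Myd88, the adaptor of most Toll-like receptors, read 758 and 2415 (1.67), and Azi2, an adaptor of TBK1, 1011 and 2095 (1.05). Azi2 was not counted without scaling or with the mean of its probe sets. Tbk1 itself read 501 and 989, a log2 ratio of 0.98 just short of the 2-fold limit. Ikbke, the gene of the related kinase, read 23 and 42.2, under the floor on both arrays.

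Interferon genes themselves were hardly detected. The signal of Ifnb1, which encodes interferon beta, was 99.5 in mock and 221 in B-DNA cells, both too low to be counted. With the floor at the 30th percentile of all signals it was counted as higher. Of 15 genes of interferons, their receptors and JAK kinases only Jak2 was counted, at 427 and 1062 (1.31), and without scaling 0 genes of the list were higher and 1 was lower. The receptor genes Ifnar1 at 559 and 761 (0.45) and Ifnar2 at 758 and 897 (0.24) were measured on both arrays and not counted.

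The transcription factors of the pathway split by member. Of 8 IRF genes 5 were higher (median 1.41). Irf7, the IRF that amplifies interferon production, read 216 and 4150.2 (4.27), Irf1 1299.6 and 5653 (2.12), and Irf9 293 and 797 (1.44). Irf3, which acts through phosphorylation of existing protein, read 1178 and 1024 (-0.20). Of 6 STAT genes 1 was higher, Stat2 at 225 and 2007 (3.16), while Stat3 read 1889.9 and 2081 (0.14). Stat5a had a log2 ratio of 0.68 and was not counted, but another of its probe sets read 277 and 664 (1.26). Of 14 brakes on JAK-STAT signalling 2 were higher: Usp18, given above, and Socs1, the inhibitor of JAK kinases, at 252 and 2198 (3.13). Isg15 is not analysed here.

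Chemokines followed a similar split. All 3 ligands of the receptor CXCR3 were higher (median 4.51). Cxcl11 went from 65.3 to 2785, at least 22.8-fold, with at least 1.19 on the log2 scale from another probe set, and Cxcl9 from 7.39 to 2682, at least 22-fold. Of 15 CC chemokines 5 were higher. Ccl5, which draws T cells and monocytes, read 841 and 15819 (4.23). The monocyte chemokines Ccl7 at 2408 and 10052 (2.06) and Ccl2 at 9264 and 21927 (1.24) were already bright in mock cells, and Ccl8 read 240.1 and 836 (1.80). Of 9 other CXC chemokine genes and Cx3cl1 together, Cxcl1, a neutrophil chemokine, was counted at 370.5 and 967 (1.38).

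Among 26 cytokine and cytokine receptor genes 6 were higher and 1 lower (median 0.12). Il6, an inflammatory cytokine of fibroblasts, read 345 and 1861 (2.43). Il15, which sustains natural killer cells, went from 7.81 to 491 (at least 4.02-fold), and Il15ra, which presents it on the cell surface, from 498 to 1469.6 (1.56), so ligand and receptor were both higher. Il33, an alarmin, went from 18.2 to 516, at least 4.23-fold. Il11, a cytokine of stromal cells, went the other way, from 437 to 117, at least 3.58-fold lower. Lif and Csf1, made by fibroblasts at high level, read 2813 and 2647 (-0.09) and 7826 and 6816 (-0.20).

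The proteasome cuts the peptides that MHC class I presents, and its immune form was higher. All 4 genes of the immunoproteasome and its activator were higher (median 2.91), while none of 31 genes of the constitutive proteasome was counted in either direction (median -0.06). Psmb8 read 175 and 1892 (3.43), Psmb10 558 and 3724 (2.74), and Psmb9 went from 45 to 1031, at least 8.44-fold higher. Psmb7, the constitutive counterpart of Psmb10, read 6869 and 7066 (0.04). Of 16 genes of peptide loading and class I heavy chains 7 were higher (median 0.72). Tap1, which forms the peptide transporter with Tap2, read 364 and 4199 (3.53; at least 1.01 on another probe set), and Tap2 read 308 and 1299.8 (2.08). The heavy chains H2-D1 at 2435 and 7496 (1.62) and H2-K1 at 3843 and 8689.7 (1.18) started bright. Other probe sets of H2-K1 gave 1.65, 2.08 and 0.90. Their shared light chain B2m read 11659.9 and 15841 (0.44) and was not counted. The general chaperones of the endoplasmic reticulum Calr, Canx and Pdia3 had log2 ratios of -0.16, -0.19 and 0.04. Of 7 MHC class II genes only Cd74, the invariant chain, was counted, from 115 to 262, at least 2.15-fold.

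NF-kB genes differed little on average. None of 13 genes of NF-kB subunits and inhibitors was counted (median 0.04), but 1 was higher after quantile normalization. Nfkb2 had a log2 ratio of 0.04, while another of its probe sets read 265 and 571 (1.11). Nfkbia, the inhibitor that NF-kB itself induces, was bright on both arrays at 11017 and 12591 (0.19). Its other probe sets gave 0.42, 0.49 and 0.63. Of 26 target genes 3 were higher and 1 lower (median 0.16): the adhesion molecule Vcam1 read 2963 and 8523 (1.52). The apoptosis inhibitor Birc2 read 225 and 567 (1.33), and the collagenase Mmp13 335 and 808 (1.27). Mmp3, a second matrix protease, read 634 and 313 (-1.02), lower. Ptgs2, the cyclooxygenase of inflammation, read 5165 and 5903 (0.19). Without the scaling of arrays 1 target gene was higher and 4 were lower.

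Cell death and cell cycle genes held a few large ratios. Of 28 apoptosis genes 4 were higher and 1 lower. Casp4, the inflammatory caspase that answers cytosolic lipopolysaccharide, read 140.0 and 651 (2.22), and the death receptor Fas 295 and 1049 (1.83). Bad, which was lower at 596 and 212 (-1.49), gave 0.13 on another probe set. Of 32 genes of the step from G1 to S phase 2 were higher, Ccne1, which encodes cyclin E, at 353 and 2003 (2.50) and the retinoblastoma relative Rbl1 at 169 and 407 (1.27). Rbl1 was not counted without scaling or with the mean of its probe sets. None of 26 genes of G2 and mitosis was counted (median 0.00). Top2a at 1344 and 1347 and Cdk1 at 1443 and 1386 were nearly equal on both arrays. None of 18 p53 target genes was counted (median 0.19), with Cdkn1a, a cell cycle inhibitor, at 5988 and 7905 (0.40).

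Several groups had no counted gene in either direction: 19 collagens (median -0.11), 20 matrix proteins (0.01), 25 WNT genes (0), 10 genes of fatty acid synthesis (-0.26), 21 genes of the unfolded protein response (0.02), 15 of glycolysis (0.11) and 12 reference genes (-0.10). Col1a1 read 26349.8 and 29237 (0.15), Hspa5, the chaperone induced by unfolded protein, 16406 and 13927 (-0.24), and Actb 24084 and 22488 (-0.10). Without scaling, which moves every WT ratio by -0.40 where no floor enters, up to 2 genes of each of these groups except the matrix proteins, the unfolded protein response and glycolysis were lower.

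Of the 182 lower genes 146 stand on none of the 56 gene lists, and the listed groups cover the other 36. The macrophage markers, with more lower genes than any other list, come last here. Among genes of mesenchymal development, 7 of 40 transcription factors and linked genes were lower and 2 higher in WT cells (median near 0). In Ikbke-/- cells 3 of the 40 were lower and 1 higher, and in Tbk1-/- cells 0 and 2. Gas1 read 3573 and 586 (-2.61), with -1.61 from another probe set. Foxc2, a forkhead factor of mesenchyme and vessels, read 1523 and 378 (-2.01), and Bhlhe40, a repressor that responds to stress and the clock, 2808 and 865 (-1.70). Snai1, a driver of mesenchymal transition, read 2097 and 809 (-1.37), while Twist1, another such driver, was among the higher genes at 300.3 and 667 (1.15). Runx1 was counted lower (-1.15) but gave 0.42 on another probe set. In the TGF-beta and BMP group of 26 genes 2 were lower and 1 higher. Inhba, the subunit of activin A, read 7147 and 2026 (-1.82), and Tgfbr1 808 and 358 (-1.18). With the mean of its probe sets Tgfbr1 was not counted. Inhbb, the other activin subunit gene, read 409 and 905 (1.15) on one probe set and 0.11 on another.

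Immediate early genes answer growth factors and stress within minutes. Of 33 such genes 4 were lower and 1 higher in WT cells (median -0.15). The Tbk1-/- pair had 5 lower and 0 higher (median -0.44), the Ikbke-/- pair 3 and 0 (median 0), and the Tbk1-/- Ikbke-/- pair 0 and 3 (median 0.09), so lower values in this group were also found in cells without Tbk1. Maff, a small Maf factor, went from 499.7 to 31.6, at least 4.09-fold lower. Klf10 read 1072 and 485 (-1.14), Egr2 500.4 and 240.1 (-1.06), and Fos 1406 and 695 (-1.02). Egr2 was not counted with the mean of its probe sets, nor Fos after quantile normalization. The gene that went the other way was Zfp36, whose product destabilises inflammatory mRNA, at 1384 and 3151 (1.19).

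Cholesterol synthesis had 2 of 20 genes lower and none higher in WT cells (median -0.31). The Tbk1-/- pair also had 2 lower (median -0.74), as did the Ikbke-/- pair (median -0.67), and the Tbk1-/- Ikbke-/- pair had 0 (median -0.07). Msmo1, a sterol methyl oxidase, read 3122 and 599 (-2.38). Hmgcs1, which makes the precursor of mevalonate, read 4422 and 1835 (-1.27), and its 3 other probe sets gave -1.82, -1.20 and -1.43. Sqle at 1923 and 1008 (-0.93) and Cyp51 at 1159.5 and 703 (-0.72) lay on the same side without being counted. Ch25h, which makes an antiviral oxysterol and stands on another list, was higher at 1098 and 2686 (1.29). In the mock cells of the other genotypes Msmo1 read 6651 (Ikbke-/-), 5036 (Tbk1-/-) and 1213 (Tbk1-/- Ikbke-/-), and after B-DNA 1964, 2468 and 893. Its B-DNA signal was thus below its mock signal in all 4 pairs, but by less than 2-fold in Tbk1-/- Ikbke-/- cells.

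Macrophage markers were lower in the WT pair and stood apart from the fibroblast genes. Of 30 such markers 14 were lower and none higher (median -0.98 against 0 over all genes). Lyz1 read 5903 and 651 (-3.18) with -2.00 from another probe set, and the lysozyme gene Lyz2 4991 and 1205 (-2.05). Both Lyz1 probe sets are of a type that may read related sequences. The complement gene C1qa read 1191 and 303 (-1.98), the lipopolysaccharide receptor Cd14 1002 and 284 (-1.82), and Adgre1, a surface antigen of mouse macrophages, 758 and 387 (-0.97). The signal was 244 or more for 19 of the 30 markers in mock WT cells, for 13 in B-DNA WT cells, and for 1 or 2 in every other sample. Their summed signal was 24706 on the WT mock and 7802 on the WT B-DNA array and lay between 2179 and 2536 on the others. In bulk RNA, fewer macrophages and less RNA of these genes per cell cannot be told apart. Of the 182 lower genes 13 were under the floor on all 6 other arrays, and 10 of these 13 are macrophage markers. The others are Clec4d, Plek and Rab7b, which are not on the marker list. Without the 14 markers 168 genes were lower, and the part of macrophages in those was not tested. Among the 315 higher genes 4 were under the floor on all 6 other arrays: AW112010, Ccl12, Fgl2 and Tslp, named after their values were seen.

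**Figure D3:**
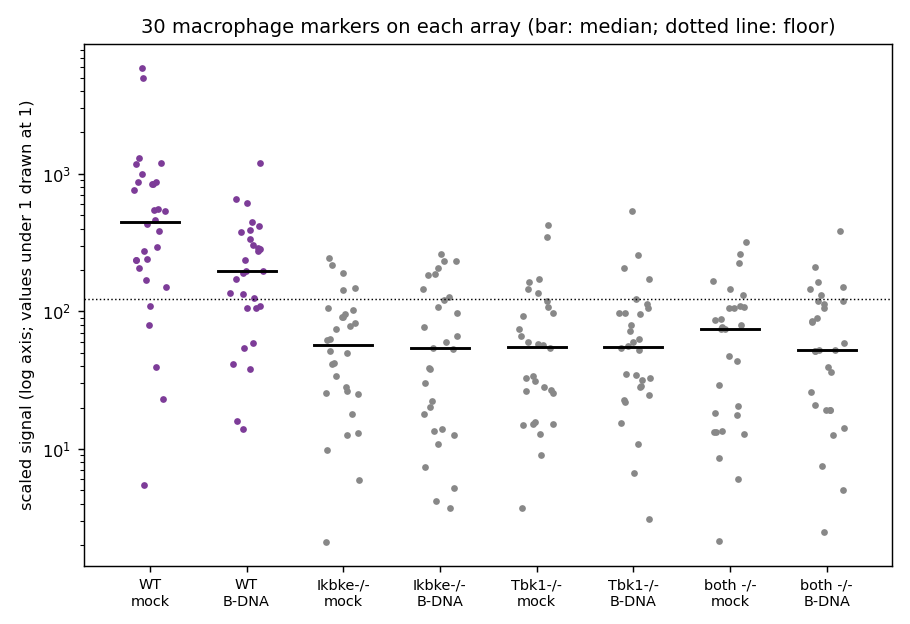
Scaled signal (log axis) of 30 macrophage markers on each of the 8 arrays, with a bar at the median and a dotted line at the floor of 122. The WT mock array has a median of 444 and the WT B-DNA array 197, while the medians of the other 6 arrays lie between 52.4 and 74.9.

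How far a ratio depended on the probe set differed between the directions. Of the higher genes 80 had a next probe set that reached 244 on a WT array, and all 80 went the same way on it, 70 of them by 2-fold or more (median 1.40, against 1.53 on the probe set used). Of the lower genes 45 had one, 39 went the same way and 12 did so by 2-fold or more (median -0.43, against -1.15). Among the genes that were not counted, 92 of 2170 differed by 2-fold or more on their next probe set, in either direction. Mthfd1, an enzyme of folate metabolism, read 709 and 84.6 (at least 5.81-fold lower) on one probe set and -0.24 on the log2 scale on the next. Pdgfra, the only fibroblast marker counted as lower, read 885 and 290.4 (-1.61), with -0.53 on its other probe set. Hspb8, a small heat shock protein, gave -1.29, -0.46 and 0.06.

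**Figure D4:**
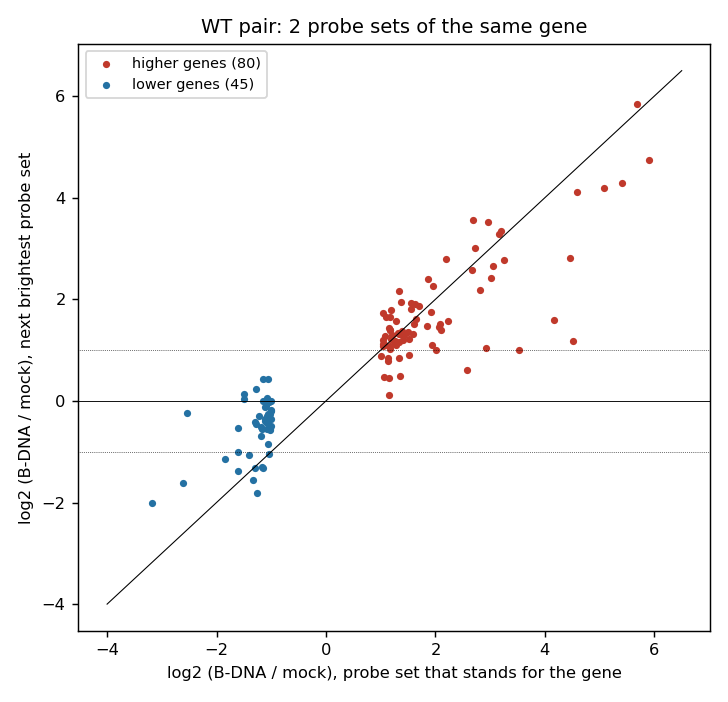
Log2 ratio of B-DNA over mock in WT cells on the probe set that stands for a gene (x axis) and on the gene's next brightest probe set (y axis), for 80 higher and 45 lower genes; the solid diagonal marks equal values and dotted lines mark 2-fold. The red points follow the diagonal, and most blue points lie between 0 and -1 on the y axis.

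Higher genes often sat beside each other in the genome. In the gene order of the RefSeq table for GRCm38.p6, 64 of the 315 higher genes (20.3%) had a higher gene as the adjacent measured gene, against 543 of 12060 other genes (4.50%). For the lower genes this held for 6 of 182 (3.30%) against 2.89% of the rest. The higher genes formed 28 runs of 2 or more. The longest, of 4 genes each, were Gbp7, Gbp3, Gbp2b and Gbp2, and Psmb9, Tap1, Psmb8 and Tap2 in the MHC. The latter run holds a pair of proteasome subunits and both genes of the peptide transporter. Runs of 3 were Ifi204, Mndal and Ifi202b, then Ifit2, Ifit3 and Ifit1, then Irgm1, Gm12185 and Ifi47, and Tor1aip1, Tor1aip2 and Tor3a, which encode a torsin ATPase and its partners.

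The Ikbke-/- pair gave a second reading of the same treatment in cells with Tbk1. There 342 genes were higher and 158 lower, 2.76% and 1.27% of all genes. Of the WT higher genes 230 were also higher, 73.0% of the WT list and 67.3% of the Ikbke-/- list, and 295 of the 315 had a ratio above 0. The median log2 ratio of the 315 genes was 1.51 in WT and 1.64 in Ikbke-/- cells. Of the WT lower genes 36 were also lower, 19.8% of the WT list and 22.8% of the other, and 146 of the 182 had a ratio below 0, with medians of -1.19 and -0.60. The 36 shared genes include no macrophage marker, and without those markers the WT list is 168 genes. The ISRE core was in 20.6% of 243 windows of the shared higher genes and in 6.76% of 74 windows of those higher in WT cells alone of the pair.

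Single genes differed between the WT and Ikbke-/- pairs, and no direct test of these pairs exists with 1 array a group. Ranked by the gap in log2 ratio among genes above the floor on all 4 arrays, Cxcl1 led, with 370.5 and 967 in WT and 485 and 278 in Ikbke-/- cells (gap 2.18). It was followed by Atp2a3 (2.07), Dnajc1 (1.95; its WT ratio was 0.03, and -0.92 on another probe set), Serf1 (1.94) and Mrps21 (1.77). The opposite end held Bad (-3.06), Lyz2 (-1.96), H2-T3 (-1.95), Cd68 (-1.88) and Lrrc58 (-1.88), of which Lyz2 and Cd68 are macrophage markers and H2-T3 gave 0.44 on another probe set in WT cells. After B-DNA, Cxcl9 read 2682 in WT but 203 in Ikbke-/- cells, from mock signals of 7.39 and 17.9. The term for Ikbke in a limma fit over all 8 arrays called 0 of 9626 genes (435 at an unadjusted p under 0.05, lowest adjusted p = 0.98 by limma). Xist, the RNA of the inactive X chromosome, read 3002 and 3766 in WT and 138 and 161 in Ikbke-/- cells, a gene chosen after its values were seen. Sex of the embryos and Ikbke genotype cannot be told apart here.

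In cells without Tbk1 few of the WT genes were counted. The Tbk1 probe set read 501 and 989 in WT, 472 and 910.0 in Ikbke-/-, 226 and 305 in Tbk1-/- and 290.0 and 389.6 in Tbk1-/- Ikbke-/- cells; whether it lies in the deleted stretch is not known here. In Tbk1-/- cells 28 genes were higher and 39 lower (0.226% and 0.315%), and in Tbk1-/- Ikbke-/- cells 52 and 72 (0.42% and 0.581%). Of the 315 WT higher genes, 4 and 8 were higher in these genotypes, and the median of the list was 0 in both. Of the 182 WT lower genes 7 and 5 were lower, with medians of -0.02 and 0. Ifit1 read 65.1 and 104 in Tbk1-/- and 149 and 138 in Tbk1-/- Ikbke-/- cells, against 600.0 and 23925 in WT cells. Tlr2 read 562 and 619 in Tbk1-/- cells, against 1075 and 5295.

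**Figure D5:**
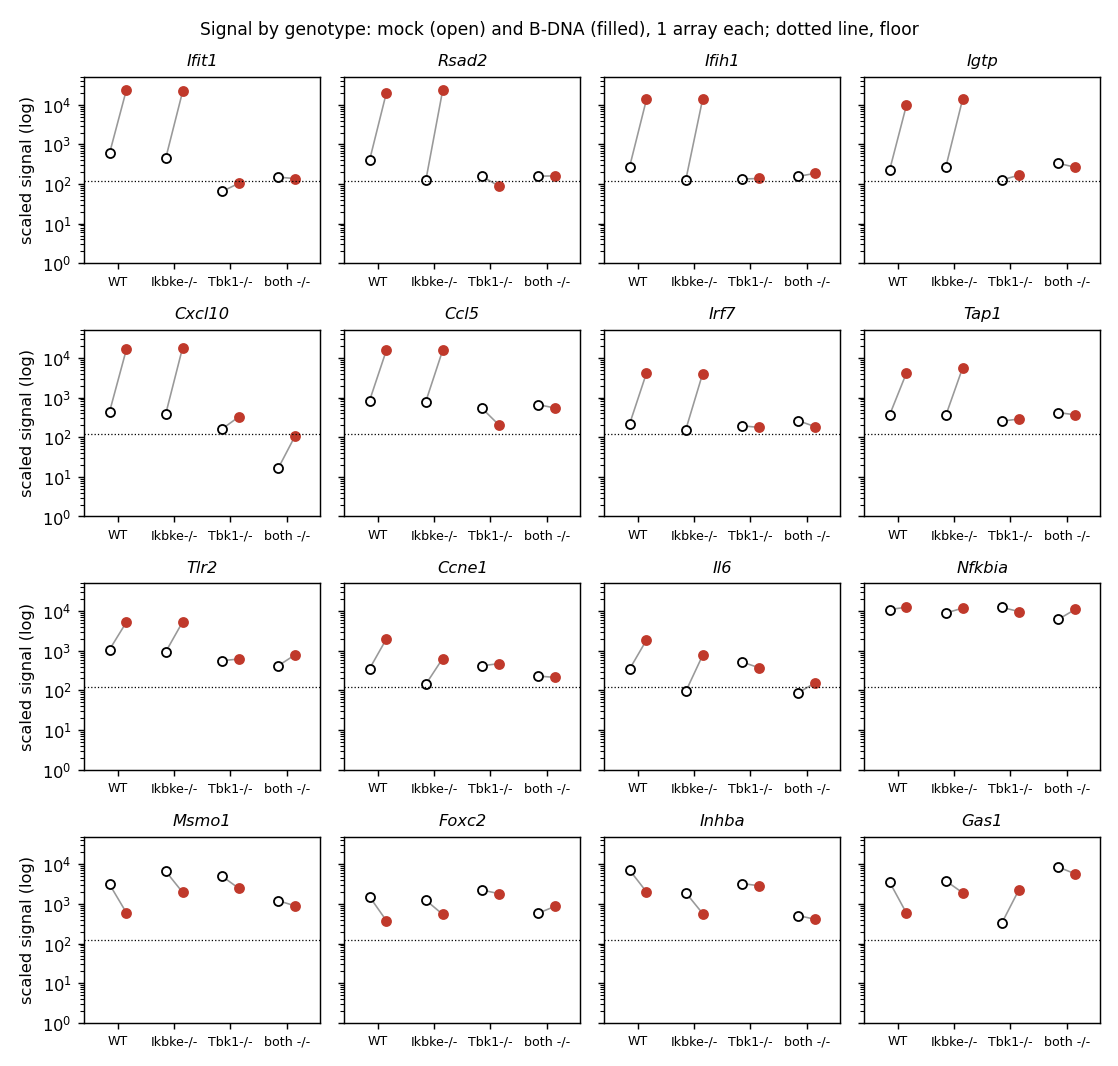
Scaled signal (log axis) of 16 genes on the mock (open) and B-DNA (filled) array of each of the 4 genotypes, 1 array each, with a dotted line at the floor of 122. Ifit1, Rsad2, Ifih1, Igtp, Cxcl10, Ccl5, Irf7 and Tap1 are far apart in WT and Ikbke-/- cells and close or under the floor in the genotypes without Tbk1, and Nfkbia stays between 6199 and 12591 on every array.

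Whether the response differs with Tbk1 was tested in the same limma fit, with genotype as a block and terms for treatment, treatment by Tbk1 and treatment by Ikbke. It called 176 genes with a lower log2 ratio in the Tbk1-/- pairs and 23 with a higher one (1.83% and 0.239% of 9626 genes, limma, Benjamini-Hochberg 0.05). Of the 315 WT higher genes 173 were among the former, and of the 182 WT lower genes 16 were among the latter. The WT pair is part of this fit, so these counts are not independent of the choice of genes. For Ifih1 the Tbk1 term was -6.05 with an SE of 0.29 (limma, adjusted p = 4.91e-04), and for Irf7 -4.80 with an SE of 0.28 (limma, adjusted p = 7.53e-04). By group, the lower ratios comprised all 3 IFIT genes, all 5 immunity-related GTPases, all 5 guanylate-binding proteins tested and all 4 immunoproteasome genes. They also comprised 15 of 27 further antiviral effectors and 7 of 12 class I genes, but 1 of 23 NF-kB target genes and 0 of 12 NF-kB subunits and inhibitors. A gene entered the fit if it reached the floor on any 1 array, so genes high only after B-DNA in cells with Tbk1 were let in. All 3 IFIT genes had a log2 ratio of 0 in the Tbk1-/- pair, with both signals under the floor. These group counts follow in part from the lists and that filter and are not separate support. In the other direction the term was 1.73 with an SE of 0.23 for Foxc2 (limma, adjusted p = 0.0182), and 1.54 with an SE of 0.23 for Inhba (limma, adjusted p = 0.0300). No group has a second array, so the error of this fit is not the spread between replicate arrays. It is what the treatment, Tbk1 and Ikbke terms leave over in the 4 pairs (1 residual degree of freedom), moderated over genes by limma. These p-values measure differences against that remainder only, and nothing says that the arrays came from separate cultures. Without the filter on low genes the fit called 0 genes, and a model without the Ikbke term called 0 when any 1 of the 4 pairs was left out (the WT pair included), against 99 and 5 with all pairs.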

How the data were processed

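Gene expression was measured on 8 Affymetrix arrays, 1 for each of 4 genotypes and 2 treatments. The authors deposited a linear intensity for every probe set, computed with MAS5 per the submitters' processing notes. Per the labels' design text Microarray Suite and GeneSpring were used, with settings not stated there. That text names another array type than the probe sets belong to, so genes were named through the platform annotation whose IDs match. Precision is limited by having 1 array per group.

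Of 22690 probe sets 64 were controls. Of the other 22626, 20380 had 1 gene symbol (20351 matched the RefSeq table of GRCm38.p6), 691 several and 1555 none. Arrays were scaled to a 2% trimmed mean of 500 (factors 1.96 to 3.58), values under the 40th percentile of all scaled values (122) were set to it, and each of 12393 genes was represented by its probe set of highest mean signal. A gene counted at 2-fold or more with its higher value at 244 or more. Differences with Tbk1 and Ikbke were tested by lmFit and eBayes of limma 3.58.1 under R 4.3.3 (2-sided, threshold 0.05 after Benjamini-Hochberg adjustment) over the 9626 genes not under the floor everywhere. The fit was run on simulated data with independent noise, which cannot show whether its error term suits these arrays. Motifs were searched with Python 3.11.15 in RefSeq promoter windows of 300.0 bases.

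The gene lists, members and rule for named genes were chosen with earlier results of these data known, so no list is independent support. Named were the 20 highest and 12 lowest measured WT ratios, 10 higher and 6 lower genes with 1 value under the floor, counted members of each of 56 lists (up to 8) with up to 4 others of high signal, a set of pathway and reference genes, 6 genes per sign of the Tbk1 term and 5 per sign of the gap to Ikbke-/- cells. Of that set, Gapdh had no probe set with a single symbol, and 1 gene is not reported here. Further probe sets that reached 244 are given for some named genes. Alternatives varied the scaling, the floor, the probe set of a gene, the fold, the filter and the model.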

Additional observations from a re-analysis of the deposited data

Results flagged for a closer look

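The response differed with the Tbk1 genotype by the limma interaction term. It called 176 genes with a lower log2 ratio in the Tbk1-/- pairs and 23 with a higher one. Among genes above the floor on all 8 arrays, the differences were -6.05 for the RNA sensor Ifih1, -5.55 for the GTPase Igtp, -4.80 for the interferon regulatory factor Irf7, -5.11 for the chemokine Ccl5, -3.67 for Trim30a and -3.77 for the peptide transporter Tap1. For Irf7, the ratios behind this were 4.27 in WT, 4.69 in Ikbke-/-, -0.13 in Tbk1-/- and -0.50 in Tbk1-/- Ikbke-/- cells. The differences in the other direction were 1.83 for Jade1, 1.76 for Nanp, 1.73 for the forkhead factor Foxc2, 1.70 for Cdc42ep1, 1.57 for Zbtb22 and 1.54 for the activin subunit Inhba. Each of these 6 genes was lower after B-DNA in WT cells, by -1.01 (Cdc42ep1) to -2.01 (Foxc2) on the log2 scale. Over 14 alternatives the adjusted p of these 12 genes (limma) reached 0.398 at its highest, or 0.492 for Foxc2, and a gene was called under 5 (Zbtb22) to 9 of them.

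Probe sets without a single gene symbol were kept out of the gene counts and also held higher signals in WT cells. Of 691 probe sets with several symbols 24 (3.47%) were higher and 8 (1.16%) lower after B-DNA. Of 1555 with no symbol 20 (1.29%) were higher and 15 (0.96%) lower. Over all genes the shares were 2.54% and 1.47%, so the probe sets with no symbol lay under both. No gene is named from them.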

How the results depend on the processing

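The count of 315 higher genes in WT cells became 178 without scaling of arrays, 144 at 3-fold and 638 at 1.5-fold. The count of 182 lower genes became 729 without scaling, 275 with the floor at the 30th percentile, 118 with the mean of all probe sets, 27 at 3-fold and 695 at 1.5-fold. Higher genes were 63.4% of the counted genes, 19.6% without scaling, 58.5% with a common median and 63.6% after quantile normalization. All 178 higher genes left without scaling were among the 315, and all 182 lower genes were among the 729. Of 140 named genes counted in WT cells, 93 kept their call under all 9 alternatives and 105 under those of scaling, floor and probe set. The minimum of 244 changes no count, because the floor already implies it. The 176 genes with a lower ratio in Tbk1-/- pairs (limma) became 100 without scaling, 93 with the mean of probe sets, 0 without the filter on low genes, 99 without the Ikbke term, and 0 to 0 when a pair was left out as well. The 23 with a higher ratio became 10 with a common median, 13 with the lower floor, 4 with the mean of probe sets, 0 without the filter, 83 with genes above the floor on all arrays, 5 without the Ikbke term, 53 with a trend in eBayes, and 0 to 0 when a pair was left out. At an unadjusted p under 0.05 (limma), 1553 genes passed without the filter and 1175 to 1621 with a pair left out. The balance of directions did turn: lower genes outnumbered higher ones without scaling and at 1.5-fold, and without scaling the NF-kB targets went from 3 higher and 1 lower to 1 and 4, and the list of interferons, receptors and JAK kinases from 1 and 0 to 0 and 1. The Ikbke term called 0 genes under every alternative of scaling, floor, probe set and filter (330 to 862 at an unadjusted p under 0.05 by limma). The fit pairs the 2 arrays of each genotype through the genotype block, and the labels carry no replicate numbers to pair further. With 1 array a side, a ratio near 2-fold cannot be told from the spread between arrays.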

Other observations

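Of the 315 genes higher in WT cells 200 stand on none of the 56 lists, and of the 182 lower genes 146 do. The genes named next were chosen after their values were seen. Slfn8, a member of the interferon-induced Schlafen family, went from 17.1 under the floor to 1083, at least 8.87-fold higher. Cd274, which encodes the T cell inhibitor PD-L1, went from 67.2 to 2755, at least 22.6-fold higher. Helz2, a helicase and coactivator, read 137 and 1212 (log2 ratio 3.14). Genes of metabolism and trafficking were also present: the lipase gene Lipg read 429 and 3571 (3.06), and Katna1, a microtubule-severing enzyme, 302 and 2043 (2.76). Pnp, which splits purine nucleosides, read 2186 and 9586 (2.13), and Nampt, the rate-limiting enzyme of NAD salvage, 530.1 and 2042 (1.95). Apod, a lipid-carrying lipocalin, read 263 and 1350.1 (2.36).

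These genes were higher in Ikbke-/- cells as well. Pnp read 2671 and 12552 there, against 2473 and 2249 in Tbk1-/- cells. Lipg read 238 and 2585 in Ikbke-/- and 241 and 161 in Tbk1-/- cells.

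Among the lower genes on no list, Nfatc1, a transcription factor activated by calcineurin, read 1257 and 411 (-1.61), and Spred2, an inhibitor of the Ras pathway, 1398 and 504 (-1.47). Ank, a transporter of pyrophosphate, read 3206 and 1174 (-1.45). Cebpa, a myeloid and adipocyte factor, went from 481 to 114, at least 3.94-fold lower, and read 648 and 596 in Ikbke-/- cells.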
